A study of Mus musculus with 8 samples.

Results

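The integrated stress response and the amino acid supply it controls were followed through 10 genes: Eif2ak1, Atf4, Atf5, Ddit3, Trib3, Sesn2, Asns, Psat1, Chac1 and Slc7a11. They were taken by symbol from a table of 23337 genes, and 10 of 10 were found. Chac1 and Slc7a11 were chosen by their measured differences between the Plek2 labels, so those differences are given as a description without a test. The other 8 were included as genes of the pathway.

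RNA was sequenced from bone marrow cells of C57BL/6 mice aged 4 months. Every library came from mice with a JAK2V617F/+ genotype, a change that keeps this cytokine receptor kinase active, so no group is without the mutation. The groups were TER119-positive erythroblasts labelled JAK2V617F/+ Plek2-/-, TER119-positive erythroblasts labelled JAK2V617F/+ Plek2+/+, lineage-negative Kit-positive progenitors labelled JAK2V617F/+ Plek2-/-, and progenitors of the same sort labelled JAK2V617F/+ Plek2+/+. Each group held 2 libraries, and the labels do not say whether these came from separate mice, so p-values measure only the spread between libraries. Plek2 encodes pleckstrin-2, a phosphoinositide-binding protein of erythroblasts.

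Cells answer a shortage of amino acids, heme or folding capacity by phosphorylating the translation factor eIF2. This slows general protein synthesis while the transcription factor ATF4 is made in larger amounts, and ATF4 raises genes for amino acid synthesis, uptake and charging of tRNAs. In red cell precursors the kinase that starts the response is the heme-regulated one encoded by Eif2ak1, which matches globin synthesis to the supply of heme.

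Total counts ran from 16038035 to 23521726 per library. Levels are in CPM, counts scaled to a common library size after TMM adjustment of the totals, which centres most genes on no change, and 3 counts equal 0.0983 to 0.235 CPM. Erythroblast markers summed to 103338 to 127131 CPM in erythroblasts and 959 to 1112 CPM in progenitors. Hba-a1 and Hbb-b1 were listed at 0 in every library, and Hba-a2 was at 0 in the progenitors. Stem and progenitor markers summed to 409 to 571 CPM in erythroblasts and 2934 to 4072 CPM in progenitors. Plek2 itself had 48.2 and 53.1 CPM in erythroblasts labelled Plek2-/-, against 108 and 129 CPM in Plek2+/+ erythroblasts. In progenitors it went against the label, at 5.06 and 5.67 CPM where the label is Plek2-/-, against 1.36 and 0.708 CPM where it is Plek2+/+. Xist, transcribed from the inactive X chromosome of females, had 2.13 to 3.599 CPM in libraries labelled Plek2-/-, against 2523 to 3044 CPM in Plek2+/+ libraries, so sex and Plek2 label cannot be told apart in any comparison between the labels.

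The DNA element through which ATF4 acts, paired with a C/EBP protein, is the C/EBP-ATF response element (CARE), searched here as TGATGNAA on both strands (TTNCATCA as the reverse complement). Promoter windows ran from 250 bases before to 50 bases after the start in RefSeq on GRCm38.p6, and 10 of 10 genes had one. The element was present in 4 of 10 genes, Chac1, Slc7a11, Trib3 and Asns, and in 3.97% of all 32851 promoters. The 250 bases before the starts of Chac1 and Slc7a11 are shown because these genes were chosen by their differences between the Plek2 labels. For Trib3 and Asns, the other genes of the set with a match, 30 bases around the match are shown. All read 5′ to 3′ along the gene, with matches in capitals.
Chac1 (chr2:119350992-119351241, plus strand): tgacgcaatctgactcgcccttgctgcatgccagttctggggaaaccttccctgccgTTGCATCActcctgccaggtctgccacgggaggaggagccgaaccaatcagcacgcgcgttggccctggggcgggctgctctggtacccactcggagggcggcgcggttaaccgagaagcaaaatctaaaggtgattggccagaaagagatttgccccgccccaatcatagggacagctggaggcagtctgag
Slc7a11 (chr3:50443614-50443863, minus strand): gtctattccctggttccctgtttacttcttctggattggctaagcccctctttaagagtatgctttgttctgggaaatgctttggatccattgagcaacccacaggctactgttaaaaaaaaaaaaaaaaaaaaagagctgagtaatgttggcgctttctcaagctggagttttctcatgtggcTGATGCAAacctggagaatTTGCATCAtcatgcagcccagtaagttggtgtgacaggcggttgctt
Trib3 (chr2:152344028-152344057, minus strand): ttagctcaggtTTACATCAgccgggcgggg
Asns (chr6:7693214-7693243, minus strand): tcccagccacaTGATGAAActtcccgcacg
The Chac1 match began 193 bases before the start. Slc7a11 carried a pair in opposite orientation, beginning 66 and 47 bases before the start. The match of Asns began 23 bases before the start, and that of Trib3 lay 15 bases after it. A match describes letters and not binding. The antioxidant element TGACNNNGC (GCNNNGTCA as the reverse complement), through which NRF2 acts, was found in Asns and Sesn2, which is 2 of 10 genes against 12.4% of all promoters.

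The clearest pattern was between the cell populations. In Plek2+/+ libraries 9 of 10 genes were higher in erythroblasts than in progenitors and Psat1 was lower, where 36.0% of the 13365 genes tested were called higher and 37.8% lower (73.8% in all). In libraries labelled Plek2-/-, 8 of 10 were higher and Psat1 and Slc7a11 were not called, where 37.5% of genes were called higher and 39.2% lower (76.7% in all). The median log2 difference of the 10 genes was 3.24 in Plek2+/+ libraries, beside -0.06 over all genes tested. In libraries labelled Plek2-/- it was 3.33, beside -0.07 over all genes. Chac1 and Slc7a11 are among the 10, and the levels that gave them their place enter these counts and medians. Of the genes not chosen that way, each but Psat1 was called higher in both labels. Calls are edgeR quasi-likelihood tests at a Benjamini-Hochberg adjusted p below 0.05 over all genes. In bulk RNA, fewer cells of a type and less RNA per cell cannot be told apart.

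**Figure D1:**
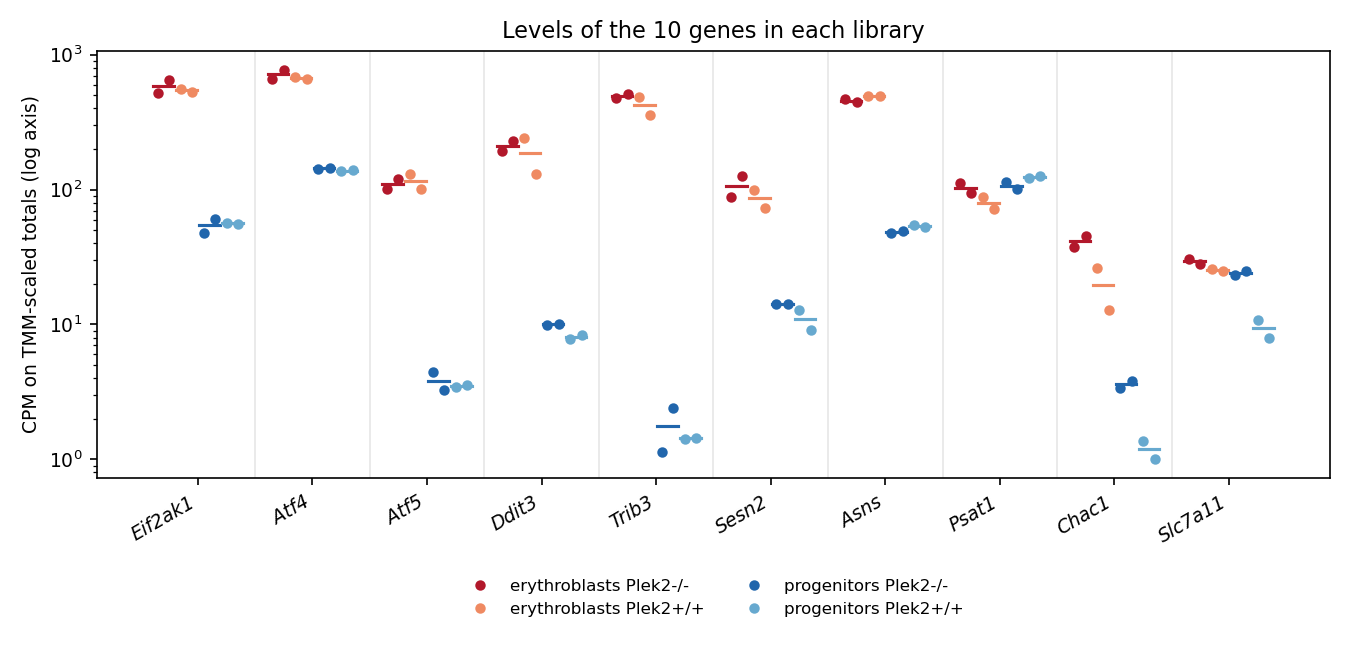
CPM of the 10 genes in each of the 8 libraries, on a log axis. Points are single libraries in 4 groups of 2, and bars are group means. For Trib3 the erythroblast libraries sit at 355 to 515 CPM and the progenitor libraries at 1.129 to 2.39 CPM, while the groups of Psat1 all lie between 72.1 and 125 CPM.

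Eif2ak1 (chr5:143817788-143904251, plus strand, GRCm38) encodes the heme-regulated eIF2 kinase. It had 524 and 648 CPM in erythroblasts labelled Plek2-/-, against 48.0 and 60.8 CPM in progenitors of that label. Plek2+/+ erythroblasts had 559 and 534 CPM, against 56.6 and 55.5 CPM in Plek2+/+ progenitors. Every erythroblast library was above every progenitor library, and within each population the ranges of the labels overlapped. The fold was 10.8 in libraries labelled Plek2-/- (log2 3.43, SE 0.13, edgeR adjusted p = 5.08e-11) and 9.74 in Plek2+/+ libraries (log2 3.28, SE 0.13, edgeR adjusted p = 7.64e-11). Its exons overlap those of Aimp2 by 487 bases and of Ankrd61 by 172 bases on the other strand, and the strand setting of the counting is not given in the sources used here, so reads there cannot be told apart.

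Atf4 (chr15:80255184-80257541, plus strand) encodes the central transcription factor of the response, which is controlled mainly at translation. Its mRNA had 661 and 768 CPM in erythroblasts labelled Plek2-/-, against 143 and 145 CPM in progenitors of that label. Plek2+/+ erythroblasts had 680 and 657 CPM, against 137 and 140 CPM in Plek2+/+ progenitors. All erythroblast libraries stood above all progenitor libraries, and the labels overlapped in erythroblasts but not in progenitors. The fold was 4.97 in libraries labelled Plek2-/- (SE of log2 0.09, edgeR adjusted p = 8.57e-11) and 4.83 in Plek2+/+ libraries (SE of log2 0.09, edgeR adjusted p = 1.05e-10).

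Atf5 (chr7:44812256-44816658, minus strand) encodes a related factor that is also translated when eIF2 is phosphorylated. It had 101 and 119 CPM in erythroblasts labelled Plek2-/-, against 4.44 and 3.24 CPM in progenitors of that label. Plek2+/+ erythroblasts had 130 and 102 CPM, against 3.43 and 3.57 CPM in Plek2+/+ progenitors. The populations were far apart and the labels overlapped in both. The fold was 28.9 in libraries labelled Plek2-/- and 33.0 in Plek2+/+ libraries (log2 4.85, SE 0.17, and log2 5.05, SE 0.17, with edgeR adjusted p = 2.31e-11 and 2.00e-11). Its exons overlap those of Nup62 and of Il4i1 by 82 bases on the other strand.

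Ddit3 (chr10:127290774-127296288, plus strand) encodes CHOP, a C/EBP-family factor that ATF4 raises under lasting stress. It had 193 and 228 CPM in erythroblasts labelled Plek2-/-, against 9.93 and 10.15 CPM in progenitors of that label. Plek2+/+ erythroblasts had 239.5 and 131.5 CPM, against 7.80 and 8.43 CPM in Plek2+/+ progenitors. The Plek2+/+ erythroblast libraries lay on either side of both erythroblast libraries labelled Plek2-/-. The fold was 20.95 in libraries labelled Plek2-/- (SE of log2 0.23, edgeR adjusted p = 1.64e-09) and 22.8 in Plek2+/+ libraries (SE of log2 0.24, edgeR adjusted p = 1.78e-09). Its exons overlap those of Mars by 68 bases on the other strand.

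Trib3 (chr2:152337422-152344032, minus strand) encodes a pseudokinase that ATF4 and CHOP raise and that holds ATF4 back. It had 474 and 515 CPM in erythroblasts labelled Plek2-/-, against 1.129 and 2.39 CPM in progenitors of that label. Plek2+/+ erythroblasts had 490 and 355 CPM, against 1.41 and 1.45 CPM in Plek2+/+ progenitors. Nearly all of it was in the erythroblasts, and the labels overlapped in both populations. The fold was 273 in libraries labelled Plek2-/- (log2 8.09, SE 0.23, edgeR adjusted p = 3.70e-12), where it ranked 25 of 13365 genes by size of change. In Plek2+/+ libraries it was 294 (log2 8.20, SE 0.24, edgeR adjusted p = 4.90e-12), rank 29. The progenitor levels rest on as few as 29 counts in a library.

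Sesn2 (chr4:132492032-132510501, minus strand) encodes a leucine-binding sestrin that restrains the growth kinase complex mTORC1. It had 87.5 and 127 CPM in erythroblasts labelled Plek2-/-, against 14.3 and 14.1 CPM in progenitors of that label. Plek2+/+ erythroblasts had 100.1 and 72.8 CPM, against 12.8 and 9.14 CPM in Plek2+/+ progenitors. The labels overlapped in erythroblasts and did not in progenitors. The fold was 7.56 in libraries labelled Plek2-/- and 7.99 in Plek2+/+ libraries (edgeR adjusted p = 1.86e-08 and 2.27e-08).

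Asns (chr6:7675169-7693254, minus strand) encodes asparagine synthetase. It had 469.5 and 445 CPM in erythroblasts labelled Plek2-/-, against 47.6 and 49.5 CPM in progenitors of that label. Plek2+/+ erythroblasts had 498 and 496.5 CPM, against 55.0 and 52.9 CPM in Plek2+/+ progenitors. Asns was the steadiest of the 10 genes within groups, with replicates at most 1.05-fold apart. The fold was 9.42 in libraries labelled Plek2-/- and 9.22 in Plek2+/+ libraries (log2 3.23 and 3.21, SE 0.08 each, edgeR adjusted p = 1.36e-12 and 1.45e-12).

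Psat1 (chr19:15904678-15947337, minus strand), a transaminase of serine synthesis, did not share this pattern. It had 111 and 93.8 CPM in erythroblasts labelled Plek2-/-, against 114 and 101 CPM in progenitors of that label. Plek2+/+ erythroblasts had 88.1 and 72.1 CPM, against 122 and 125 CPM in Plek2+/+ progenitors. It was 1.54-fold lower in Plek2+/+ erythroblasts (log2 -0.62, SE 0.11, edgeR adjusted p = 0.000182), where the populations did not overlap. In libraries labelled Plek2-/- they overlapped, with a log2 difference of -0.07 (95% interval -0.30 to 0.17, edgeR adjusted p = 0.594).

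Chac1 (chr2:119351229-119354381, plus strand) encodes a gamma-glutamylcyclotransferase that breaks down glutathione and is a target of ATF4. It had 37.8 and 45.5 CPM in erythroblasts labelled Plek2-/-, against 3.39 and 3.80 CPM in progenitors of that label. Plek2+/+ erythroblasts had 26.1 and 12.9 CPM, against 1.36 and 1.01 CPM in Plek2+/+ progenitors. The 4 groups formed a ladder in which no neighbours overlapped: erythroblasts labelled Plek2-/-, Plek2+/+ erythroblasts, progenitors labelled Plek2-/-, Plek2+/+ progenitors. Slc7a11 had the same order without overlap, and both genes were chosen for the label differences in it. For Asns no neighbours overlapped either, in another order. Between populations the fold was 11.6 in libraries labelled Plek2-/- (log2 3.53, SE 0.26, edgeR adjusted p = 4.88e-08). In Plek2+/+ libraries it was 16.8 (log2 4.07, SE 0.33, edgeR adjusted p = 1.17e-07). The levels that gave Chac1 its place in the set enter both folds.

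Slc7a11 (chr3:49892526-50443614, minus strand) encodes xCT, the transporter that exchanges cystine for glutamate and so feeds glutathione synthesis. It had 30.5 and 28.3 CPM in erythroblasts labelled Plek2-/-, against 23.4 and 24.9 CPM in progenitors of that label. Plek2+/+ erythroblasts had 25.7 and 25.1 CPM, against 10.9 and 7.92 CPM in Plek2+/+ progenitors. Of the 4 groups, the Plek2+/+ progenitors stood apart at the low end. The population fold was 2.73 in Plek2+/+ libraries (log2 1.45, SE 0.14, edgeR adjusted p = 7.37e-07). In libraries labelled Plek2-/- it was 1.22 (log2 0.28, 95% interval 0.00 to 0.56, edgeR adjusted p = 0.0600), and limma-voom, at an adjusted p of 0.0452, called it. Without Plek2+/+ progenitor replicate 1 or 2 the edgeR adjusted p was 0.0389 or 0.0390, and over all alternatives it ran from 0.00341, with the direction reversed, to 0.174. The levels that gave this gene its place in the set enter both values. Neutrophil markers also differed between the populations. In libraries labelled Plek2-/- 14 of 14 were lower in erythroblasts, and in Plek2+/+ libraries 13 of 14 were higher and 0 lower. Their part in the result was not tested.

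The scaling bears on Psat1 and Slc7a11. With library totals alone the median of all genes in the population comparisons moved to -0.86 in libraries labelled Plek2-/- and -0.87 in Plek2+/+ libraries. Slc7a11 then reversed in libraries labelled Plek2-/- (log2 -0.50, edgeR adjusted p = 0.00341) and Psat1 became called there (log2 -0.85, edgeR adjusted p = 1.95e-05, the lowest of a range up to 0.860 over the alternatives). The other 8 genes kept a higher level in erythroblasts in both labels under that scaling.

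**Figure D2:**
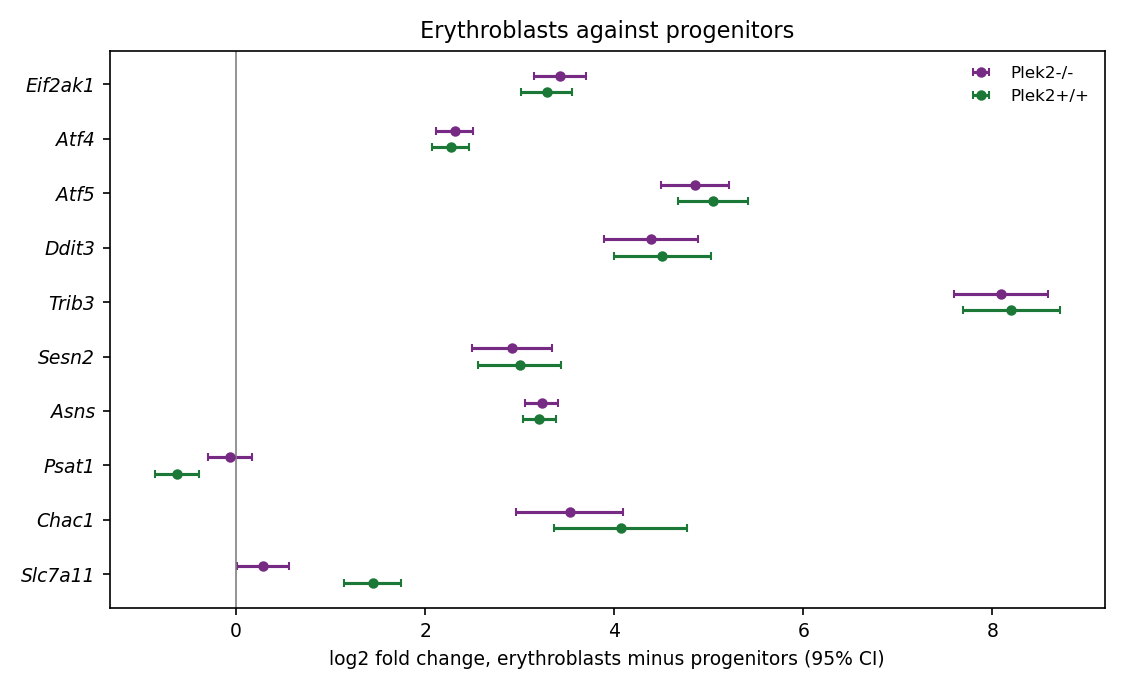
Log2 difference of erythroblasts over progenitors for the 10 genes, with 95% intervals from edgeR, in libraries labelled Plek2-/- and in Plek2+/+ libraries. Trib3 lies farthest out, at 8.09 and 8.20. Psat1 is the gene below 0, at -0.07 and -0.62.

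Per kilobase of the longest CCDS transcript in GENCODE vM21, the genes fell into another order in each population. In erythroblasts labelled Plek2-/-, Atf4 had the highest level at 414 ± 43.9 CPM per kb (SD, n = 2). Trib3 at 244.0 ± 14.2, Ddit3 at 236.5 ± 28.3 and Asns at 227 ± 8.51 CPM per kb came next, within each other's spread. Slc7a11 was lowest at 3.19 ± 0.171 CPM per kb. In progenitors labelled Plek2-/-, Atf4 was again highest at 83.4 ± 0.656 CPM per kb. Psat1 followed at 40.9 ± 3.52 CPM per kb, ahead of Asns at 24.1 ± 0.656 CPM per kb. Trib3 was lowest there at 0.869 ± 0.440 CPM per kb (SD, n = 2 throughout).

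The 10 genes also varied between replicates. All 10 genes were higher in replicate 1 than in replicate 2 of the Plek2+/+ erythroblasts, against 3 of 10 in the erythroblasts labelled Plek2-/-. The count was 3 of 10 in progenitors labelled Plek2-/- and 5 of 10 in Plek2+/+ progenitors. The share of all genes was not counted. In the Plek2+/+ erythroblasts Asns and Slc7a11 differed by only 0.0045 and 0.0336 on the log2 scale. Between the Plek2+/+ erythroblast libraries Chac1 differed by 1.01 and Ddit3 by 0.86 on the log2 scale, beside a median of 0.12 over 11432 genes, of which 0.481% and 0.988% differed more. Asns stayed level there, at 498 and 496.5 CPM. In progenitors labelled Plek2-/-, Trib3 was 2.12-fold apart at low counts.

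No member passed the test for a difference between the Plek2 labels among the 8 that could be tested. In erythroblasts edgeR called 0 of 8, where 2.84% of 12241 genes were called (0.180% higher and 2.66% lower). DESeq2 and limma-voom also called 0, and 1 gene, Psat1, had an unadjusted p below 0.05. In progenitors edgeR called 0 of 8, where 4.91% of 13168 genes were called (4.50% higher and 0.402% lower). DESeq2 and limma-voom again called 0, and 2 genes, Ddit3 and Sesn2, had an unadjusted p below 0.05. The median log2 difference of the 8 was 0.15 in erythroblasts (0.01 over all genes) and 0.13 in progenitors (-0.01 over all genes).

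The intervals show which sizes these data allow. For Atf4 the log2 difference between labels was 0.11 in erythroblasts (95% interval -0.12 to 0.34) and 0.10 in progenitors (-0.04 to 0.24). For Eif2ak1 it was 0.11 in erythroblasts (-0.14 to 0.36) and 0.00 in progenitors (-0.25 to 0.25). Trib3 had a wide interval in progenitors, from -0.46 to 1.19, and Ddit3 had one in erythroblasts, from -0.24 to 0.62. Sesn2 was at 0.32 in erythroblasts (edgeR adjusted p = 0.413) and 0.43 in progenitors (edgeR adjusted p = 0.214). Without replicate 1 of the erythroblasts labelled Plek2-/-, Sesn2 was called in erythroblasts (log2 0.55, edgeR adjusted p = 0.0102, where the alternatives ran to 0.985). Its erythroblast value was 0.02 without replicate 2 of that group, 0.57 without Plek2+/+ replicate 1 and 0.09 without Plek2+/+ replicate 2. Its progenitor value was 0.68 without Plek2+/+ replicate 1 and 0.19 without Plek2+/+ replicate 2. Ddit3 in progenitors was at 0.35 (edgeR adjusted p = 0.186), with 9.93 and 10.15 CPM in libraries labelled Plek2-/-, against 7.80 and 8.43 CPM in Plek2+/+ libraries.

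Psat1 leaned in opposite ways. Its log2 difference was 0.36 in erythroblasts (95% interval 0.11 to 0.61, edgeR adjusted p = 0.131) and -0.16 in progenitors (95% interval -0.34 to 0.01, edgeR adjusted p = 0.321). Without replicate 1 of the progenitors labelled Plek2-/- the progenitor value was -0.26 and called (edgeR adjusted p = 0.00148, where the alternatives ran to 0.998). The label difference in erythroblasts minus that in progenitors was 0.56 (SE 0.15, edgeR adjusted p = 0.0546). On that difference edgeR called 0 of 8 genes, where 5.55% of 13365 genes were called (0.232% higher and 5.32% lower). DESeq2 called 1, Psat1, limma-voom called 0, and 1 had an unadjusted p below 0.05.

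Chac1 and Slc7a11, chosen for these differences, are described without a test. Chac1 averaged 41.6 ± 5.44 CPM in erythroblasts labelled Plek2-/- and 19.5 ± 9.32 CPM in Plek2+/+ erythroblasts (SD, n = 2 each), a 2.14-fold difference (log2 1.10). The log2 value was 1.70 without Plek2+/+ replicate 1 and 0.67 without Plek2+/+ replicate 2. In progenitors Chac1 averaged 3.59 ± 0.291 CPM in libraries labelled Plek2-/-, against 1.19 ± 0.248 CPM in Plek2+/+ libraries (SD, n = 2 each), a 3.17-fold difference. Slc7a11 averaged 29.4 ± 1.58 CPM in erythroblasts labelled Plek2-/- and 25.4 ± 0.420 CPM in Plek2+/+ erythroblasts (SD, n = 2 each), a 1.16-fold difference. In progenitors it averaged 24.1 ± 1.03 CPM in libraries labelled Plek2-/-, against 9.41 ± 2.10 CPM in Plek2+/+ libraries (SD, n = 2 each), a 2.67-fold difference. For both genes the libraries of the labels did not overlap in either population. The same held for Asns, lower under the Plek2-/- label in both, and for Psat1, higher in erythroblasts and lower in progenitors. The share of all genes without overlap was not counted, here or for the other genes above. No conclusion is drawn from these separations.

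Markers of other cells also differed between the labels. Neutrophil markers (14 genes, none at 0) summed to 19016 to 25630 CPM in progenitors labelled Plek2-/- and 4494 to 7526 CPM in Plek2+/+ progenitors, with 14 of 14 called higher. In erythroblasts they summed to 13630 to 15102 CPM in libraries labelled Plek2-/-, against 19585 to 22671 CPM in Plek2+/+ libraries, with 10 of 14 called lower. Chac1 and Slc7a11 were higher under the Plek2-/- label in both populations. They were chosen for these differences, so their direction says nothing about the part of the markers. In erythroblasts, mast cell, basophil and eosinophil markers were called lower in 4 of 8 and B cell and plasma cell markers in 5 of 9, with 1 of those 9 higher. Erythroblast markers were called in 0 of 10 tested in progenitors by edgeR, though 6 had an unadjusted p below 0.05 and their median was 0.63. Of 12 monocyte and macrophage markers, 1 was called higher and 1 lower in progenitors, and 0 in erythroblasts. Between populations, 6 were called higher and 5 lower in erythroblasts labelled Plek2-/-, with log2 differences from -1.24 to 5.28. In Plek2+/+ erythroblasts 8 were higher and 4 lower, from -1.15 to 5.75. The part of any of these markers in the label and population differences, Chac1 and Slc7a11 included, was not tested.

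**Figure D3:**
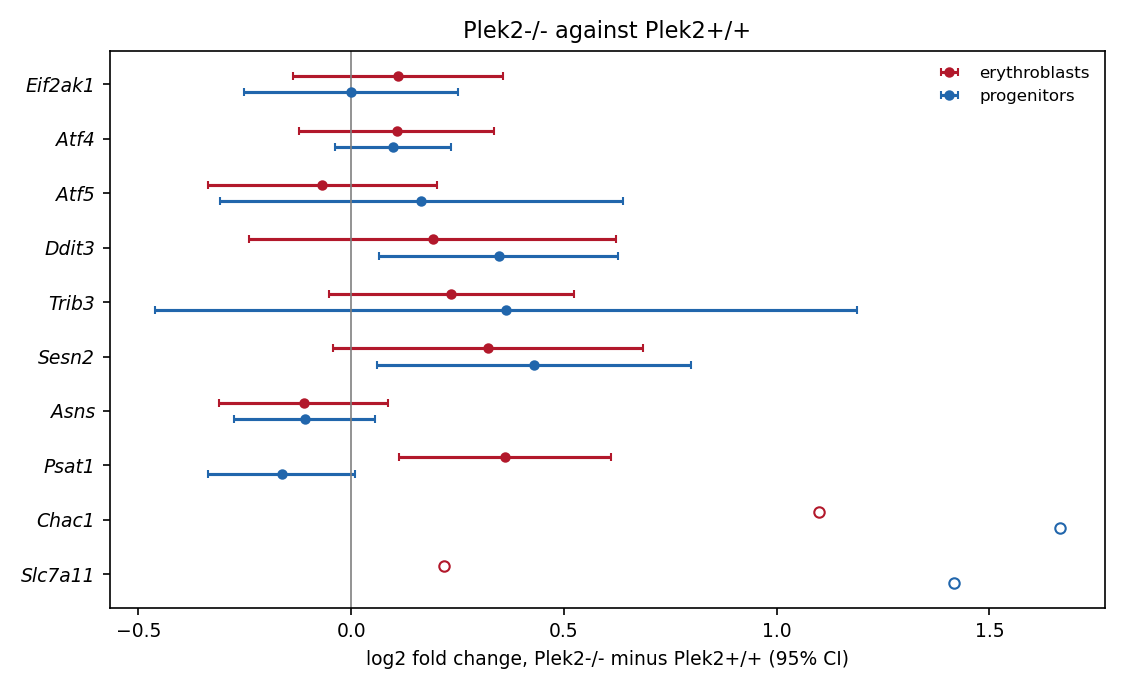
Log2 difference of libraries labelled Plek2-/- over Plek2+/+ libraries in erythroblasts and in progenitors. Filled points carry 95% intervals from edgeR. Chac1 and Slc7a11, chosen for these values, are open points without an interval. They lie at 1.66 and 1.42 in progenitors and at 1.10 and 0.22 in erythroblasts.

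**Figure D4:**
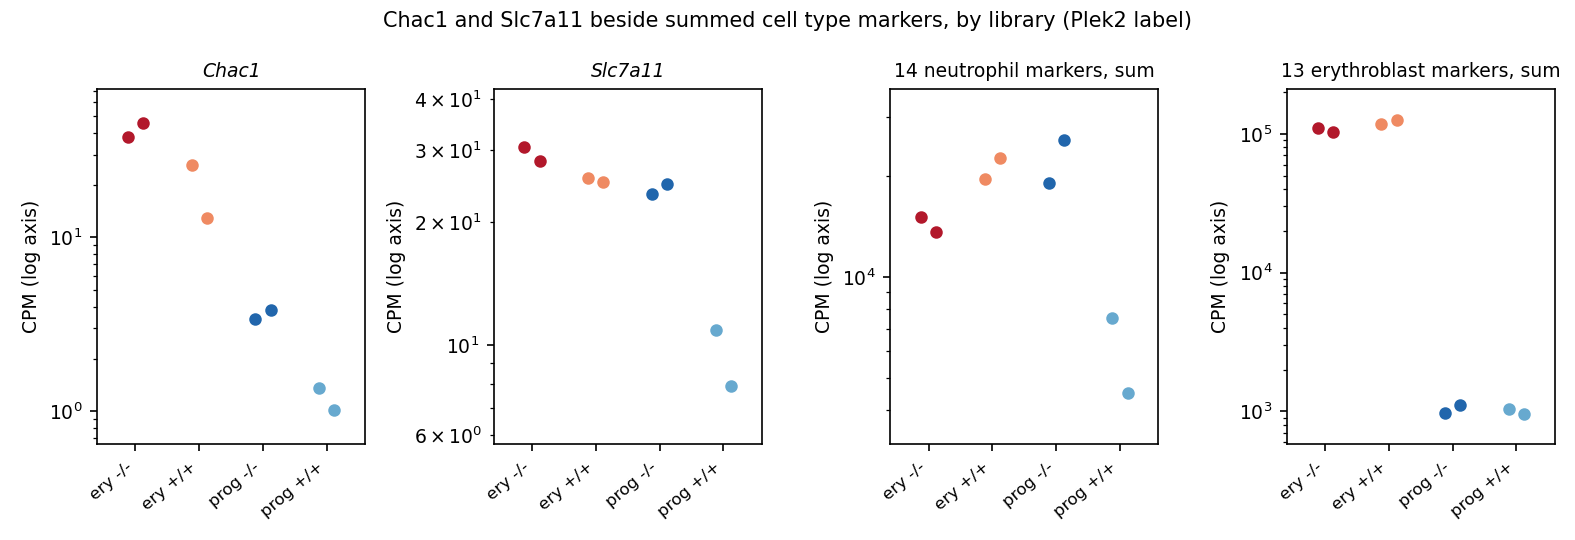
CPM of Chac1 and Slc7a11 and summed CPM of 14 neutrophil and 13 erythroblast markers on log axes, with 1 point per library in the 4 groups (ery, erythroblasts; prog, progenitors; -/- and +/+, the Plek2 label). The neutrophil sum is higher in progenitors labelled Plek2-/- (19016 to 25630 CPM) than in Plek2+/+ progenitors (4494 to 7526 CPM) and lower in erythroblasts labelled Plek2-/- (13630 to 15102 CPM) than in Plek2+/+ erythroblasts (19585 to 22671 CPM).

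Around the 10 genes, 166 further pathway genes were listed, in 11 groups. Calls between the populations were common among all genes, so the counts below are set against 37.5% higher and 39.2% lower of all genes in libraries labelled Plek2-/-, and 36.0% higher and 37.8% lower in Plek2+/+ libraries. In libraries labelled Plek2-/-, 99 of 158 pathway genes were higher in erythroblasts and 36 lower, with a median log2 difference of 0.49 beside -0.07 over all genes. In Plek2+/+ libraries 88 of 158 were higher and 39 lower, with a median of 0.29 beside -0.06. Ppp1r15a, the phosphatase subunit that ends the response by dephosphorylating eIF2, was among the strongest, with folds of 31.0 in libraries labelled Plek2-/- and 30.2 in Plek2+/+ libraries. It averaged 1054 ± 124 CPM in erythroblasts labelled Plek2-/- and 33.95 ± 5.39 CPM in progenitors of that label (SD, n = 2 each). The other eIF2 kinases were called in both directions. Eif2ak2, the kinase that binds double-stranded RNA, was higher in erythroblasts, 1.71-fold in libraries labelled Plek2-/- and 1.67-fold in Plek2+/+ libraries. Eif2ak3, the kinase of the endoplasmic reticulum, was 1.83-fold lower in erythroblasts labelled Plek2-/- and 1.502-fold lower in Plek2+/+ erythroblasts. Eif2ak4, the kinase that senses uncharged tRNA, was 1.70-fold lower in erythroblasts labelled Plek2-/- and 1.85-fold lower in Plek2+/+ erythroblasts. Eif2ak2 is outside the rule for named genes and was added after its values were seen.

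The tRNA synthetases, which charge amino acids, were mostly higher in erythroblasts, while transporters and synthesis enzymes were called in both directions. Of 20 cytosolic tRNA synthetases, 19 were higher in libraries labelled Plek2-/- and 16 in Plek2+/+ libraries, and 0 were lower in either. Aars, for alanine, led with folds of 8.60 in libraries labelled Plek2-/- and 7.77 in Plek2+/+ libraries. Of 19 amino acid transporters tested, 11 were higher and 6 lower in each label. Slc6a9, the glycine transporter GLYT1, had folds of 244 in libraries labelled Plek2-/- and 237 in Plek2+/+ libraries, and Slc43a1, a carrier of large neutral amino acids, had 31.1 and 30.6 in the same order of labels. Of 17 genes for serine, one-carbon, proline and glutamate synthesis, 10 were higher and 3 lower in libraries labelled Plek2-/-, and 8 were higher and 5 lower in Plek2+/+ libraries. Mthfd2, a mitochondrial folate enzyme, had folds of 6.39 in libraries labelled Plek2-/- and 5.50 in Plek2+/+ libraries.

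Glutathione genes followed, while the folding arm of the unfolded protein response did not. Of 17 glutathione and cystine genes, 13 were higher and 1 lower in libraries labelled Plek2-/-, and 14 were higher and 1 lower in Plek2+/+ libraries. Chac2, the paralog of Chac1, had folds of 35.9 in libraries labelled Plek2-/- and 45.5 in Plek2+/+ libraries. Gclm, the modifier subunit of the first enzyme of glutathione synthesis, had folds of 9.37 in libraries labelled Plek2-/- and 8.90 in Plek2+/+ libraries. Of 21 ATF6 and XBP1 target or pathway genes, 12 were lower in erythroblasts in each label, with 6 higher in libraries labelled Plek2-/- and 4 in Plek2+/+ libraries. The disulfide isomerase Pdia4 was 2.31-fold lower in erythroblasts labelled Plek2-/- and 2.58-fold lower in Plek2+/+ erythroblasts.

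Heme synthesis genes, mTORC1 sensing genes and the remaining lists came last. Of 10 heme synthesis genes, 9 were higher and 1 lower in erythroblasts in each label, with Fech, which inserts iron, at 55.6-fold in libraries labelled Plek2-/- and 51.7-fold in Plek2+/+ libraries. Of 22 genes of sestrin and mTORC1 amino acid sensing, 11 were higher and 5 lower in libraries labelled Plek2-/- (all genes: 37.5% and 39.2%). In Plek2+/+ libraries 10 were higher and 7 lower (all genes: 36.0% and 37.8%). Rragd, a Rag GTPase, had folds of 17.5 in libraries labelled Plek2-/- and 34.3 in Plek2+/+ libraries. Of 7 genes listed around mitochondrial stress, 6 were higher and 1 lower in libraries labelled Plek2-/-, and 2 were higher and 1 lower in Plek2+/+ libraries. Among them was 0610009O20Rik, a symbol for Dele1, which carries mitochondrial stress to the heme-regulated kinase. It was 1.87-fold higher in libraries labelled Plek2-/- and 1.69-fold higher in Plek2+/+ libraries. Oma1, of the same list, was 1.45-fold lower in Plek2+/+ erythroblasts. Under the Plek2-/- label Oma1 averaged 16.2 CPM in erythroblasts and 22.7 CPM in progenitors. Of 8 eIF2 and eIF2B subunits, 7 were higher and 0 lower in each label.

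**Figure D5:**
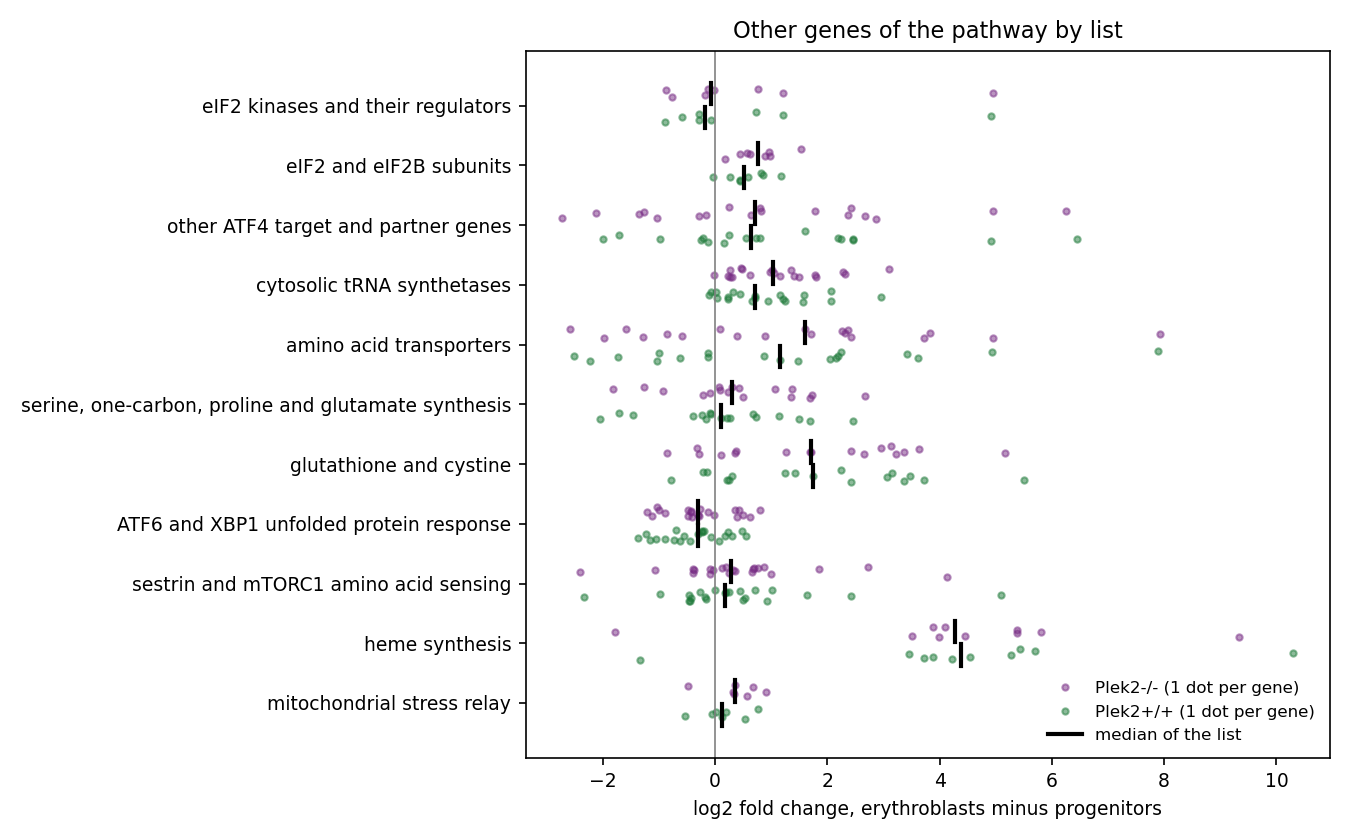
Log2 difference of erythroblasts over progenitors for the genes of each pathway list, by label. Points are single genes and black bars the medians. The heme synthesis list has the highest medians, at 4.27 in libraries labelled Plek2-/- and 4.39 in Plek2+/+ libraries, and the ATF6 and XBP1 list lies below 0, at -0.30 in both.

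Between the Plek2 labels, calls among these pathway genes in both directions together were no more frequent than among all genes. In erythroblasts edgeR called 0 of 157 higher and 2 lower, where 0.180% of all genes were called higher and 2.66% lower. DESeq2 and limma-voom called 3 each. An unadjusted edgeR p below 0.05 was found for 23 genes here and 35 in progenitors, and the share of all genes was not counted. The 2 edgeR calls were Alas1, the housekeeping first enzyme of heme synthesis, and Jdp2, a partner of AP-1 and ATF factors. Alas1 had 66.55 ± 1.82 CPM in libraries labelled Plek2-/-, against 103 ± 8.02 CPM in Plek2+/+ libraries (SD, n = 2 each, edgeR adjusted p = 0.00815). Jdp2 was 1.71-fold lower (edgeR adjusted p = 0.0439). In progenitors 5 of 157 were higher and 1 lower, where 4.50% of all genes were called higher and 0.402% lower. The higher ones were Vegfa, Jdp2 and Atf3 among ATF4 target and partner genes and Gsr and Hmox1 among glutathione genes, at 1.33-fold to 1.70-fold. Neutrophil markers were also higher in progenitors labelled Plek2-/-, and their part was not tested. Eif2s3x, an X-linked gene for the gamma subunit of eIF2, was 1.63-fold lower (edgeR adjusted p = 0.0437), and its label difference cannot be told apart from sex. In the difference of the label effects edgeR called 1 of 158 higher, the cationic amino acid transporter Slc7a1 (log2 0.44, edgeR adjusted p = 0.0354), and 5 lower, Jdp2, Vegfa, Nfil3, Gsr and Alas1, where 0.232% of all genes were called higher and 5.32% lower.

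Over the 8 libraries, likeness of profile was measured as the root mean square difference of log2 CPM centred on each gene's own mean, among 12080 genes. Nearest to Eif2ak1 were Gm16515, Fahd1, Sertad2, 1810058I24Rik and Ermap, at 0.07 to 0.10. Nearest to Slc7a11 were Gpr137c, Pilra, Slc11a1, Ifit3 and Cib2, at 0.19 to 0.25, and nearest to Chac1 were Ptprm, Cadm1, Gadd45a, St3gal5 and Btnl6, at 0.46 to 0.55. Chac1 thus had less similar neighbours than Eif2ak1 by this measure. With a smaller prior count, 5 of 5 neighbours of Eif2ak1 and of Slc7a11 were again among the 5 nearest, and 4 of 5 of Chac1.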

How the data were processed

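Messenger RNA was measured by RNA sequencing in 8 bone marrow libraries, 2 in each of 4 groups, with groups taken from the labels. The deposited table used here holds raw counts, whole numbers of reads per gene that the authors made; per the submitters' processing notes the tools were cutadapt 1.13, STAR 2.5.2a, HTSeq 0.6.1pl and DESeq2 1.14.1 with build mm10. Annotation and strand setting: not given in the sources used here. A second deposited table of normalized values was not used.

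The members, gene lists, motifs and tests were chosen with earlier results of these data known. Counts were filtered with filterByExpr, scaled with TMM and fitted by quasi-likelihood (edgeR 4.0.16 under R 4.3.3; Benjamini-Hochberg adjustment over all genes tested, threshold 0.05). All 10 members passed the filter in each fit. Differences between labels were fitted within each population, and differences between populations and the difference of label effects in 1 fit of all 8 libraries. A positive value means higher where the label is Plek2-/-, or higher in erythroblasts. The method was tested on simulated data.

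Named genes are the 10 members, from each pathway list and comparison up to 3 called genes with the lowest adjusted p (where none was called, the most abundant, of which the text gives none), Plek2, and the 5 nearest profiles of Chac1, Slc7a11 and Eif2ak1 among genes whose mean count reached 20, with a prior count of 2. Promoters are from RefSeq on GRCm38.p6, and gene positions from GENCODE vM21. Library totals ran from 16038035 to 23521726 counts. A count of 0 allows up to 3 counts, a limit that covers counting error only. Chi-square over degrees of freedom between replicates was 5.65 to 15.7, above counting error in every group. Alternatives were RLE scaling, library totals alone, DESeq2 1.42.0, limma-voom (limma 3.58.1), no filter on low counts, a replicate block, and leaving out each library.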

Additional observations from a re-analysis of the deposited data

How the results depend on the processing

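Of 851 alternative values, 661 for single genes and 102 for counts of calls kept their direction and their side of the threshold or stayed close to the value reported. The numbers of genes called between the labels moved most. In erythroblasts 348 were called, against 230 with library totals alone, 845 without the filter on low counts, 579 with the replicate block and 25 to 995 when 1 library was left out (995 and 119 without replicate 1 or 2 labelled Plek2-/-, 34 and 25 without Plek2+/+ replicate 1 or 2). In progenitors 646 were called, against 1315 without the filter and 239 to 2649 with 1 library left out (2649 and 1739 without replicate 1 or 2 labelled Plek2-/-, 440 and 239 without Plek2+/+ replicate 1 or 2). For the difference of label effects 742 were called, against 1215 without the filter and 401 to 1175 with 1 library left out (1175 without erythroblast replicate 1 labelled Plek2-/-, 401 without Plek2+/+ progenitor replicate 2). Of the 8 members tested, 0 were called in each of these. In erythroblasts 2 were called without the filter (Sesn2, Psat1), 1 with the replicate block (Psat1) and 0 to 1 with 1 library left out. In progenitors 1 was called without the filter (Sesn2) and 0 to 1 with 1 library left out. For the difference, 1 was called with RLE scaling, with DESeq2, without the filter and with the replicate block (Psat1 each time), and 0 to 1 with 1 library left out. The cause was not tested. Slc7a11 between populations in libraries labelled Plek2-/- reversed with library totals alone (log2 -0.50). The difference of the label effects of Chac1, at -0.54, became 5e-04 without replicate 1 of the Plek2+/+ erythroblasts and -0.99 without replicate 2. The replicate numbers are only shared numbers: deviations of same-numbered libraries correlated by -0.098 to 0.139. In the fit with the replicate block, Psat1 was called between labels in erythroblasts (edgeR adjusted p = 0.0323, range over the alternatives 0.0147 to 0.721) and for the difference (edgeR adjusted p = 0.0148, range 0.00143 to 0.258), Slc7a11 was called between populations in libraries labelled Plek2-/- (edgeR adjusted p = 0.0497), and no other member changed its call. With 2 libraries a group, low-count genes such as Trib3 in progenitors (29 counts at the lowest) allow only wide intervals.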
